A study of Mus musculus with 2 samples.

Results

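*Pecam1*, *Sox17*, *Gpihbp1*, *Clec14a*, *Tmem100*, *Calcrl* and *Ly6c1* are 7 genes that mark the inner lining of blood vessels, and they are described here cell by cell in mouse lungs carrying small cell lung cancer. They were taken by name as 7 of the 479 genes of an in situ panel (Xenium, which reads single transcripts in a tissue section and assigns them to segmented cells). Genotypes RPR2 and CRPR2 were measured, with 1 lung section of each and no replicate. The paper describes transplants of tumor cells of both genotypes into C57BL/6 mice as syngeneic, but states no strain for the tumor-bearing mice themselves. In RPR2 mice, floxed *Rb1*, *Trp53* and *Rbl2* were deleted by adenoviral Cre given into the airways at 10 weeks of age. CRPR2 mice carried the same floxed alleles and received the same virus, and in addition lacked *Cracd* in the germline. Cre therefore acted only in infected cells of both sections, while every CRPR2 cell, vessel cells included, lacked *Cracd*. Both sections came from 1 paraffin block on 1 slide. With 1 section per genotype there is no test between genotypes, and section, animal and genotype cannot be told apart. Every interval below is a 95% interval that covers counting error only, exact except for those of gene pairs.

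Endothelial cells line arteries, capillaries, veins and lymphatics, and each vessel type adds its own genes to a shared program of junction, receptor and transport proteins. The lung has an unusually dense capillary bed, in which gas exchange takes place and in which circulating lipids, hormones and leukocytes meet the vessel wall. Among the 7 genes, *Pecam1* encodes the junctional adhesion protein CD31 and *Clec14a* a C-type lectin of the endothelial surface. *Sox17* encodes a transcription factor of endoderm and of endothelium, best known there for arteries. *Gpihbp1* encodes the protein that holds lipoprotein lipase on the luminal face of capillaries. *Tmem100* encodes a membrane protein that lies downstream of BMP signaling through ALK1 in vessels, and *Calcrl* encodes the receptor that binds adrenomedullin or CGRP together with a RAMP partner. *Ly6c1* encodes a GPI-anchored surface protein shared by endothelium and some leukocytes, with near-identical relatives in the Ly6 family. The identifiers were ENSMUSG00000020717 (*Pecam1*), ENSMUSG00000025902 (*Sox17*), ENSMUSG00000022579 (*Gpihbp1*), ENSMUSG00000045930 (*Clec14a*), ENSMUSG00000069763 (*Tmem100*), ENSMUSG00000059588 (*Calcrl*) and ENSMUSG00000079018 (*Ly6c1*).

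Because the 7 genes were found in the same cells, the bases before their transcription starts are shown for the 3 genes that had an entry in the RefSeq promoter table (build GRCm38.p6). Each run holds the 250 bases upstream of an annotated start, read 5′ to 3′ on the gene's strand. Capitals mark AGGAAG, the core bound by ETS factors, and AACAAT, a core bound by SOX factors, searched on both strands. All 3 genes lie on the minus strand.
Clec14a, chr12:58269259-58269508: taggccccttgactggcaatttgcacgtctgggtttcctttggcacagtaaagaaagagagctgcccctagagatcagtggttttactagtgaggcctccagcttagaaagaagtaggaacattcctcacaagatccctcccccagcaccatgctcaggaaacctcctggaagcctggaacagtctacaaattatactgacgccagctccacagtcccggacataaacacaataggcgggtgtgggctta
Calcrl, chr2:84425267-84425516: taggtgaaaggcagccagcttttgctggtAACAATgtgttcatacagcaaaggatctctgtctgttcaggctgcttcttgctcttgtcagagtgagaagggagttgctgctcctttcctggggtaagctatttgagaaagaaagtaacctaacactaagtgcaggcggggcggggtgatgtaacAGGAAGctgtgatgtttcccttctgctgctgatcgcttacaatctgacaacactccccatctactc
Ly6c1, chr15:75048838-75049087: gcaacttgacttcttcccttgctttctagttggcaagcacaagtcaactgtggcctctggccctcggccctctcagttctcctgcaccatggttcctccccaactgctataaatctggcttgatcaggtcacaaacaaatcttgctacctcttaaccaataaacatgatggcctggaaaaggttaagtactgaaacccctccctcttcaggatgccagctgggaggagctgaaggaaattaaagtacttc
The *Calcrl* run held 1 AGGAAG and 1 AACAAT. The *Clec14a* and *Ly6c1* runs held 0 of either. A second annotated *Ly6c1* start lies further downstream, and its 250 bases held 3 AGGAAG matches. Of the 32851 RefSeq promoters of this length, 29.5% held AGGAAG and 9.42% held AACAAT, so these letters are common and are given as a description of the windows alone.

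The RPR2 section held 154818 segmented cells with 16313950 transcripts, and the CRPR2 section held 342845 cells with 37348565 transcripts. A cell held a median of 100 and 101 transcripts, and 152915 and 340609 cells had at least the 20 transcripts used as a minimum. The 20 negative control probes averaged 2.75 and 2.29 CPM (counts scaled to 1e6 gene transcripts), with a highest probe of 9.93 and 8.43 CPM. The sections shared 8 cell identifiers. Of the targeted genes the panel held *Rb1* and *Trp53*. *Rb1* was 10839 and 12125 CPM in tumor cells against 4126 and 3710 CPM in endothelial-like cells, and *Trp53* 784 and 902 CPM against 1774 and 2409 CPM, in RPR2 and CRPR2. Whether the probes lie in the deleted exons is not known, so these levels check no label.

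Cells were clustered across both sections on all panel genes other than the 7 members, and classes were then read from listed markers. Of 31 clusters, 3 had endothelial markers in the lead and are called endothelial-like together: a large cluster led by *Tie1*, *Plvap* and *Hey1* (here the *Plvap* cluster), a cluster led by *Prx*, *Fibin* and *Kdr* (the *Kdr* cluster), and a cluster led by *Vwf* and *Lyve1* (the *Vwf* cluster). The *Vwf* cluster also carried the cardiac muscle genes *Myoz2*, *Pln*, *Tnnc1* and *Trdn*. Endothelial-like cells numbered 36689, or 24.0% (23.8 to 24.2), of RPR2 cells and 15853, or 4.65% (4.58 to 4.73), of CRPR2 cells. These shares depended on the class rule: with cells classed one by one from their own transcripts they were 66.8% and 19.2%, and with mixed clusters counted 27.9% and 8.33%. The *Plvap*, *Kdr* and *Vwf* clusters made up 73.1%, 18.2% and 8.75% of them in RPR2 and 62.6%, 12.3% and 25.1% in CRPR2. Tumor cells, called NE-like for their neuroendocrine markers, numbered 14747 (9.64%) and 183453 (53.9%). Among their neuroendocrine markers, *Cplx2* stood at 28749 and 32394 CPM and *Scg5* at 24416 and 18525 CPM. The gap in endothelial share was thus read against sections of unlike tumor content. Among cells that were not NE-like, 26.6% of RPR2 cells and 10.1% of CRPR2 cells were endothelial-like. Those cells still included unnamed clusters with 13 raised neuroendocrine markers, so tumor content was not fully set aside. The largest of these clusters made up 1.68% of the cells that were not NE-like in RPR2 and 27.7% in CRPR2.

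All 7 genes were at least 2-fold higher in endothelial-like cells than in the other cells of the same section, in both sections. Among all genes tested, meaning those at 100 CPM or more in at least 1 of the groups compared, 10.3% passed that mark in RPR2 and 16.6% in CRPR2. The median log2 ratio of the 7 genes was 2.56 in RPR2 and 3.70 in CRPR2, against -2.08 and -1.49 over all genes tested. The 7 genes had no part in the clustering, so the label of these clusters and the members' levels were read from separate genes of the same cells.

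Taking the surface proteins first, *Pecam1* stood at 27096 CPM in the endothelial-like cells of the RPR2 section and 26233 CPM in those of the CRPR2 section. Its level varied little among the blood vessel clusters: in RPR2 it was 26786 CPM in the *Plvap* cluster, 29014 CPM in the *Kdr* cluster and 25492 CPM in the *Vwf* cluster, and in CRPR2 25910, 29338 and 25460 CPM in that order. In the lymphatic-like cluster (1006 and 1392 cells), *Pecam1* reached 14957 and 14099 CPM. It was thus the member with the flattest profile over vessels. *Clec14a* was at 23699 CPM in endothelial-like cells of RPR2 and 17128 CPM in those of CRPR2. It was highest in the *Plvap* cluster at 26954 and 19503 CPM, and in the *Kdr* cluster it was 12696 and 9252 CPM. In lymphatic-like cells *Clec14a* was only 2266 and 1737 CPM, which is 9.56% and 10.1% of the endothelial-like level of the same section.

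The transcription factor gene *Sox17* was found in endothelial-like cells at 3596 CPM (RPR2) and 3571 CPM (CRPR2). In the *Plvap* cluster it was 4561 and 4780 CPM, and in the *Kdr* cluster 664 and 812 CPM. The *Vwf* cluster held 2045 and 2045 CPM, between these levels. *Gpihbp1*, the lipase anchor, followed a similar course over the blood vessel clusters, with 19809 and 15487 CPM in the *Plvap* cluster against 4161 and 3273 CPM in the *Kdr* cluster. Unlike *Sox17*, it was kept in the lymphatic-like cluster, at 5832 CPM (RPR2) and 3978 CPM (CRPR2), where *Sox17* was at 332 and 249 CPM.

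The signaling members were spread over the blood vessel clusters in another way. *Tmem100* was 59632 CPM in the *Plvap* cluster and 48514 CPM in the *Kdr* cluster of RPR2, and 52637 and 44697 CPM in those of CRPR2. In the *Vwf* cluster it was lower, with 16226 CPM (RPR2) and 18217 CPM (CRPR2). Lymphatic-like cells held 2862 and 2677 CPM of *Tmem100*, 5.33% and 6.25% of the endothelial-like level. *Calcrl* was high in every blood vessel cluster, with 72618, 66588 and 54140 CPM in the *Plvap*, *Kdr* and *Vwf* clusters of RPR2. In CRPR2 these were 61594, 52853 and 58325 CPM, so that the *Kdr* and *Vwf* clusters changed places. *Ly6c1* was, like *Pecam1*, highest in the *Kdr* cluster but by a wider margin, at 23251 and 24411 CPM, and stood at 9712 and 12272 CPM in the *Plvap* cluster.

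When 13 clusters and classes were put in order of level for each gene, neighbors with overlapping counting intervals were most frequent for *Sox17* (7 in RPR2, 6 in CRPR2) and rare for *Tmem100* (0 and 1) and *Calcrl* (0 and 2). At the low end, NE-like and airway-like cells had overlapping intervals for *Pecam1* and *Sox17* in both sections and for *Gpihbp1* in RPR2. Overlapping intervals do not show equal levels. At the high end, the *Plvap* and *Vwf* clusters overlapped for *Pecam1* in CRPR2 and for *Ly6c1* in RPR2. Further overlaps there, for *Sox17*, *Gpihbp1* and *Clec14a*, involved clusters that mixed endothelial markers with those of another class.

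**Figure D1:**
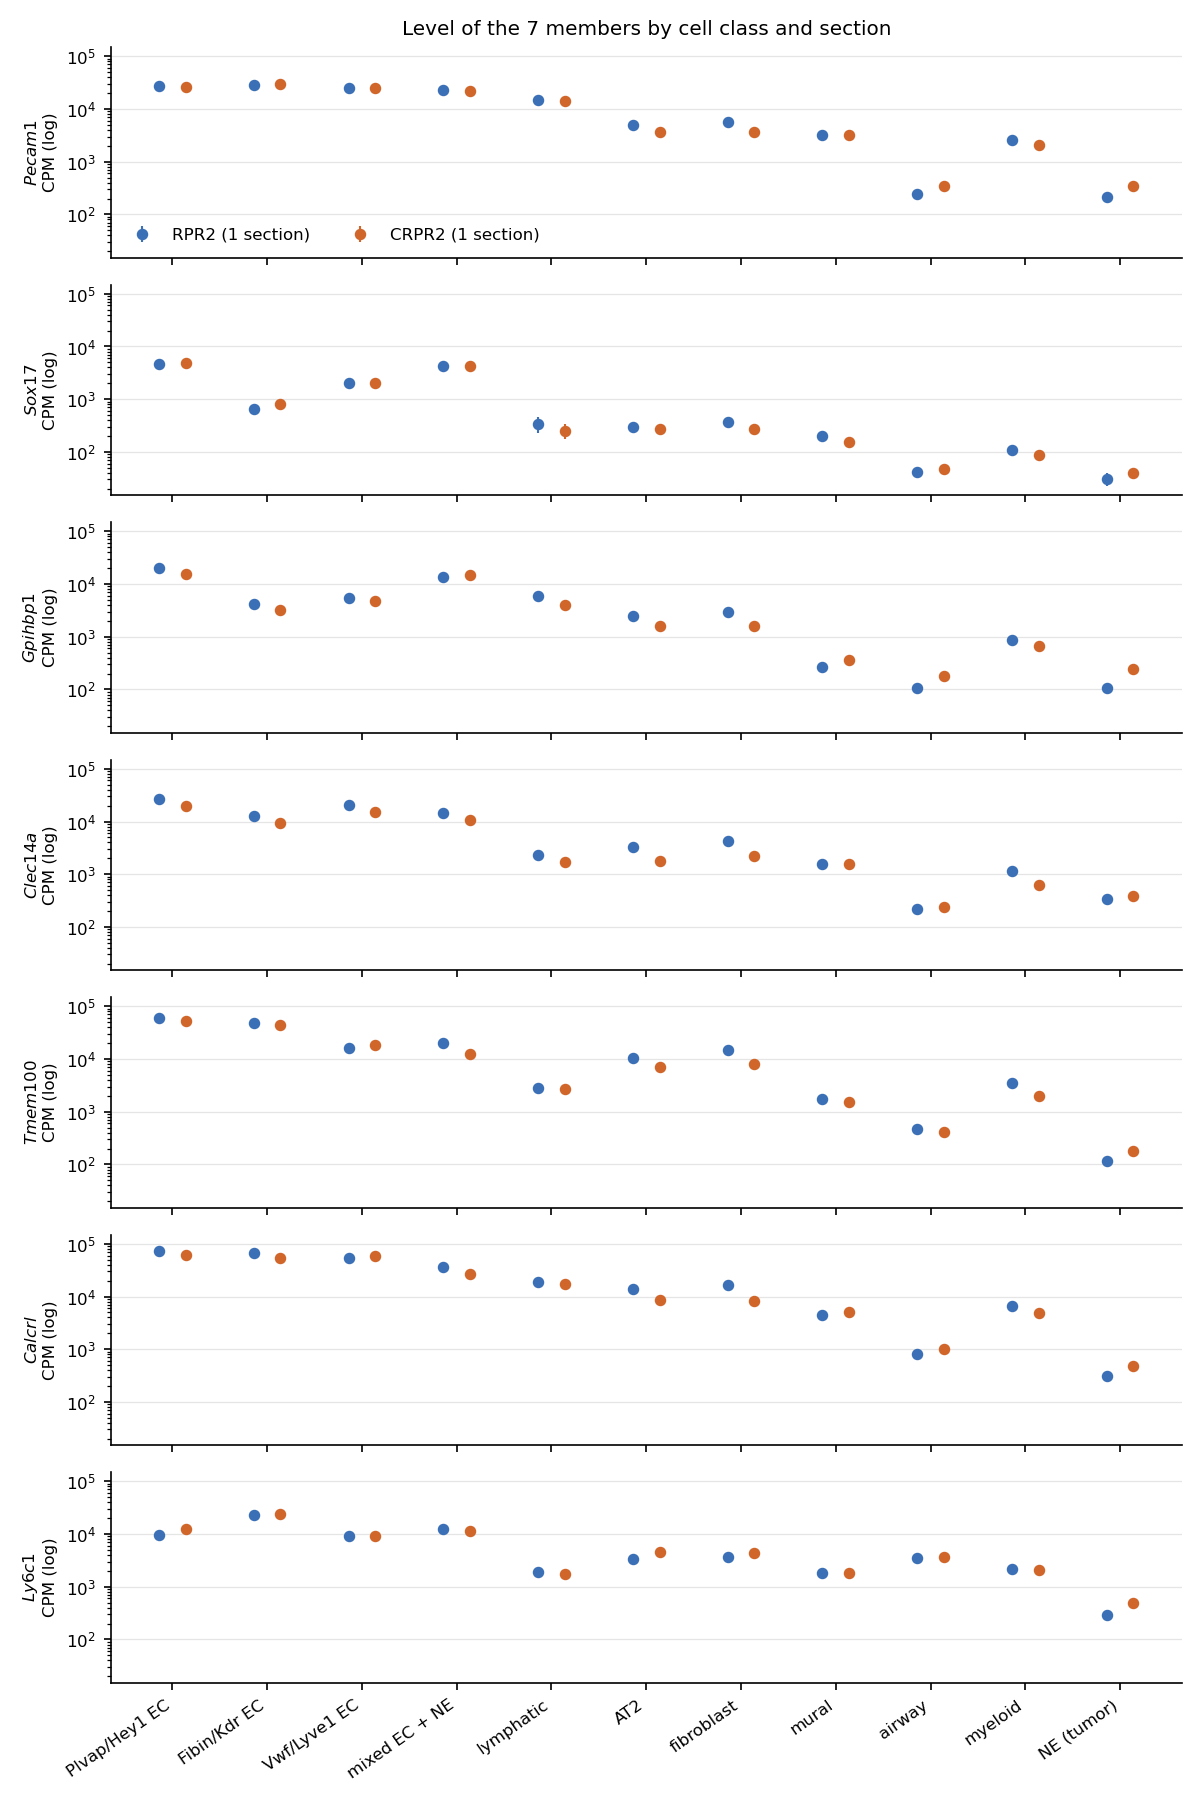
Levels of the 7 genes by cell class, from the 3 endothelial (EC) clusters and the mixed endothelial and neuroendocrine (EC + NE) cluster to NE-like tumor cells, as CPM on a log axis, with 1 point per section and bars for the exact 95% counting interval. Among the classes shown, the highest level of each gene lies in an endothelial cluster, and NE-like cells lie lowest or next to lowest, for example at 217 and 353 CPM for *Pecam1*.

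Set against the *Plvap* cluster, the *Kdr* cluster held 3 of the 7 genes at least 2-fold lower in each section, namely *Sox17*, *Gpihbp1* and *Clec14a*. Of all genes tested, 11.8% in RPR2 and 10.1% in CRPR2 were as much lower. In the other direction, *Ly6c1* passed 2-fold in RPR2 alone, where 6.60% of genes did, and 0 of 7 passed in CRPR2, where 6.85% did. The *Ly6c1* levels in CRPR2 (24411 against 12272 CPM) lay just under 2-fold. In the *Vwf* cluster, *Sox17*, *Gpihbp1* and *Tmem100* were at least 2-fold lower than in the *Plvap* cluster in both sections, against 14.7% of genes in RPR2 and 17.0% in CRPR2. None of the 7 was as much higher there, where 27.8% and 24.7% of genes were. The *Vwf* cluster therefore kept *Pecam1*, *Clec14a*, *Calcrl* and *Ly6c1* and held less of the other 3. Mural markers moved with it: their 7 genes summed to 45638 and 37438 CPM in the *Vwf* cluster against 11392 and 14460 CPM in the *Plvap* cluster, and their part in the difference was not tested.

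Within endothelial-like cells, none of the 7 genes differed by 2-fold between the sections, in either direction. Of the 251 genes tested there, 21.9% were at least 2-fold higher in CRPR2 and 0.797% at least 2-fold lower. Over the 7 genes the log2 ratio (CRPR2 over RPR2) had a median of -0.23, and over all genes tested of 0.35. The members thus lay on the lower side of a distribution that was shifted upward. *Gpihbp1* had the lowest ratio, from 15561 CPM (RPR2) and 11165 CPM (CRPR2), a log2 ratio of -0.48 (-0.50 to -0.46). *Clec14a* followed at -0.47 (-0.49 to -0.45), *Tmem100* at -0.33 (-0.34 to -0.31) and *Calcrl* at -0.23 (-0.24 to -0.22). The ratio was -0.05 (-0.06 to -0.03) for *Pecam1*, -0.01 (-0.05 to 0.03) for *Sox17* and 0.09 (0.06 to 0.11) for *Ly6c1*. Pooled over the class, *Pecam1*, *Sox17* and *Ly6c1* were therefore at nearly equal levels in the endothelial-like cells of both genotypes. The capillary lipase anchor, the lectin and the signaling members were lower in CRPR2. Lower levels were not particular to these members. Of the 9 endothelial markers that are no members, *Vwf*, *Aqp1* and *Plvap* were higher in CRPR2 and the rest lower. *Kdr* went from 16597 to 11647 CPM and *Cd36* from 45849 to 34641 CPM.

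Part of these ratios moved with the make-up of the class. With the CRPR2 clusters weighted by their RPR2 shares, the ratio was -0.35 for *Gpihbp1*, -0.16 for *Tmem100* and 0.22 for *Ly6c1*. *Clec14a* was little moved by the weighting, at -0.46. It was also the member whose ratio was most alike from cluster to cluster, with -0.47 in the *Plvap* cluster, -0.46 in the *Kdr* cluster and -0.45 in the *Vwf* cluster. In lymphatic-like cells the *Clec14a* ratio was -0.38 (-0.64 to -0.13). *Tmem100*, by contrast, had ratios of -0.18, -0.12 and 0.17 in the *Plvap*, *Kdr* and *Vwf* clusters, and *Calcrl* had -0.24, -0.33 and 0.11, so neither kept its direction. *Gpihbp1* was lower in CRPR2 in all 3, at -0.36, -0.35 and -0.23. *Ly6c1* was higher in CRPR2 in the *Plvap* cluster, at 0.34 (0.31 to 0.37), with 0.07 in the *Kdr* cluster and -0.02 in the *Vwf* cluster. Markers of other cell types were also higher in CRPR2 endothelial-like cells: neuroendocrine markers summed to 1819 CPM (RPR2) and 3990 CPM (CRPR2), myeloid markers to 1268 and 2899 CPM, and mural markers to 14153 and 20046 CPM. Their part in the ratios of the 7 genes was not tested.

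**Figure D2:**
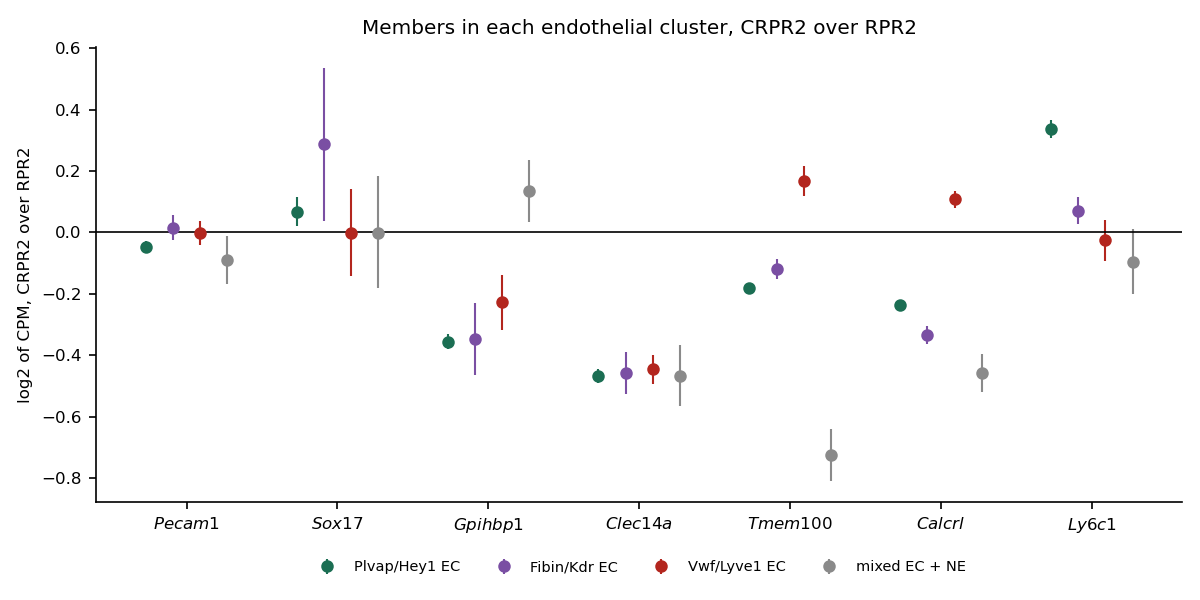
Log2 ratio of CPM in CRPR2 over RPR2 for each of the 7 genes in the 3 endothelial (EC) clusters and in the cluster that mixes endothelial and neuroendocrine markers (EC + NE), with exact 95% counting intervals. *Clec14a* lies between -0.47 and -0.45 in all 4, whereas *Tmem100* and *Calcrl* fall on both sides of 0.

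Over all cells of a section, the 7 genes differed far more, as did the share of endothelial-like cells. The 7 genes summed to 76608 CPM (RPR2) and 20723 CPM (CRPR2), a log2 ratio of -1.89 (-1.89 to -1.88), and the single genes ranged from -2.16 for *Tmem100* to -1.08 for *Ly6c1*. In endothelial-like cells the same sum was 205717 and 173555 CPM, a log2 ratio of -0.25. Endothelial-like cells held between 53.6% (*Ly6c1*) and 72.2% (*Sox17*) of a member's transcripts in RPR2. In CRPR2 they held between 23.4% (*Ly6c1*) and 45.2% (*Tmem100*). Part of the remainder lay in cells whose markers joined endothelium with another class, described next.

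The first of these clusters had 13 raised neuroendocrine markers. Neuroendocrine genes led it over the cluster median and endothelial genes over the cluster mean, and it was left out of both classes. It held 613 cells (0.401%) in RPR2 and 7190 cells (2.11%) in CRPR2. Of all *Sox17* transcripts in the section it held 1.37% in RPR2 and 19.4% in CRPR2, and of all *Gpihbp1* transcripts 0.957% and 18.4%. *Tmem100* was lowest in this respect, with 0.400% and 5.41%. The members were not lowered evenly in this cluster. *Sox17* reached 117% and 118% of its endothelial-like level, *Gpihbp1* 88.1% and 135%, *Ly6c1* 101% and 88.7%, and *Pecam1* 84.5% and 82.0%. *Clec14a* reached 61.5% and 61.6%, *Calcrl* 52.0% and 44.3%, and *Tmem100* 38.0% and 28.8%. At least 2-fold lower than in endothelial-like cells were thus *Tmem100* in RPR2, where 6.09% of genes were as much lower, and *Tmem100* and *Calcrl* in CRPR2, where 10.4% were. Neuroendocrine markers summed to 15259 and 43905 CPM in this cluster against 225156 and 216768 CPM in NE-like cells. The *Plvap* cluster, the only vessel cluster with *Sox17* above the endothelial-like level (127% and 134%), held *Tmem100* at 111% and 123% and *Calcrl* at 104% and 103%. The part of the neuroendocrine markers in the uneven levels was not tested.

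A second mixed cluster joined endothelial genes with those of alveolar type 2 cells, 5357 cells in RPR2 and 5321 in CRPR2. It held all 7 genes near their endothelial-like levels, at 84.0% and 87.6% for their sum, with *Sox17* highest at 107% and 113% and *Ly6c1* at 70.8% and 82.9%. There too *Clec14a* was lower in CRPR2, with a log2 ratio of -0.48.

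To ask which members occurred together in a cell, each cell was thinned to 50 transcripts and a gene was counted as present with at least 1 transcript. At that depth an endothelial-like cell held on average 4.36 of the 7 genes in RPR2 and 4.02 in CRPR2, and 99.2% and 97.7% of cells held at least 2. *Calcrl* was found in 96.6% and 93.6% of endothelial-like cells, *Tmem100* in 89.5% and 79.9%, and *Pecam1* in 74.5% and 73.3%. *Clec14a* was found in 66.9% and 55.4%, *Gpihbp1* in 49.8% and 38.8%, *Ly6c1* in 42.8% and 44.9%, and *Sox17* in 15.9% and 15.7%. In both sections the order of these shares was that of the genes' levels in CPM. A cell can lack a gene at 50 transcripts by sampling alone. The shares therefore do not show how many cells lack *Sox17* or another member.

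Over all cells of a section, every one of the 21 pairs occurred together more often than independence gives. The ratio of observed to expected cells ran from 1.49 to 2.73 in RPR2, and in CRPR2 from 3.11 to 7.26, with *Calcrl* and *Ly6c1* lowest and *Sox17* and *Gpihbp1* highest in both sections. Such a ratio cannot exceed 1 over the share of cells with the commoner gene. Its size thus depends on how common the genes are, and *Calcrl* was in 47.4% of all cells in RPR2 and 14.5% in CRPR2. Within endothelial-like cells the 21 ratios ran from 0.886 to 1.20 in RPR2, with a median of 1.01, and from 0.979 to 1.25 in CRPR2, with a median of 1.01. *Gpihbp1* and *Ly6c1* met least often in RPR2, and *Sox17* and *Gpihbp1* most often in both. Within the *Plvap* cluster the 21 ratios narrowed further, to a range of 0.974 to 1.02 (RPR2) and of 0.979 to 1.05 (CRPR2). *Calcrl* was in 97.2% and *Tmem100* in 94.4% of the cells of that cluster in RPR2, so pairs with either had to lie near 1 or below. For pairs of the other members, the presence of 1 told little of the other once a cell was known to belong to that cluster.

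**Figure D3:**
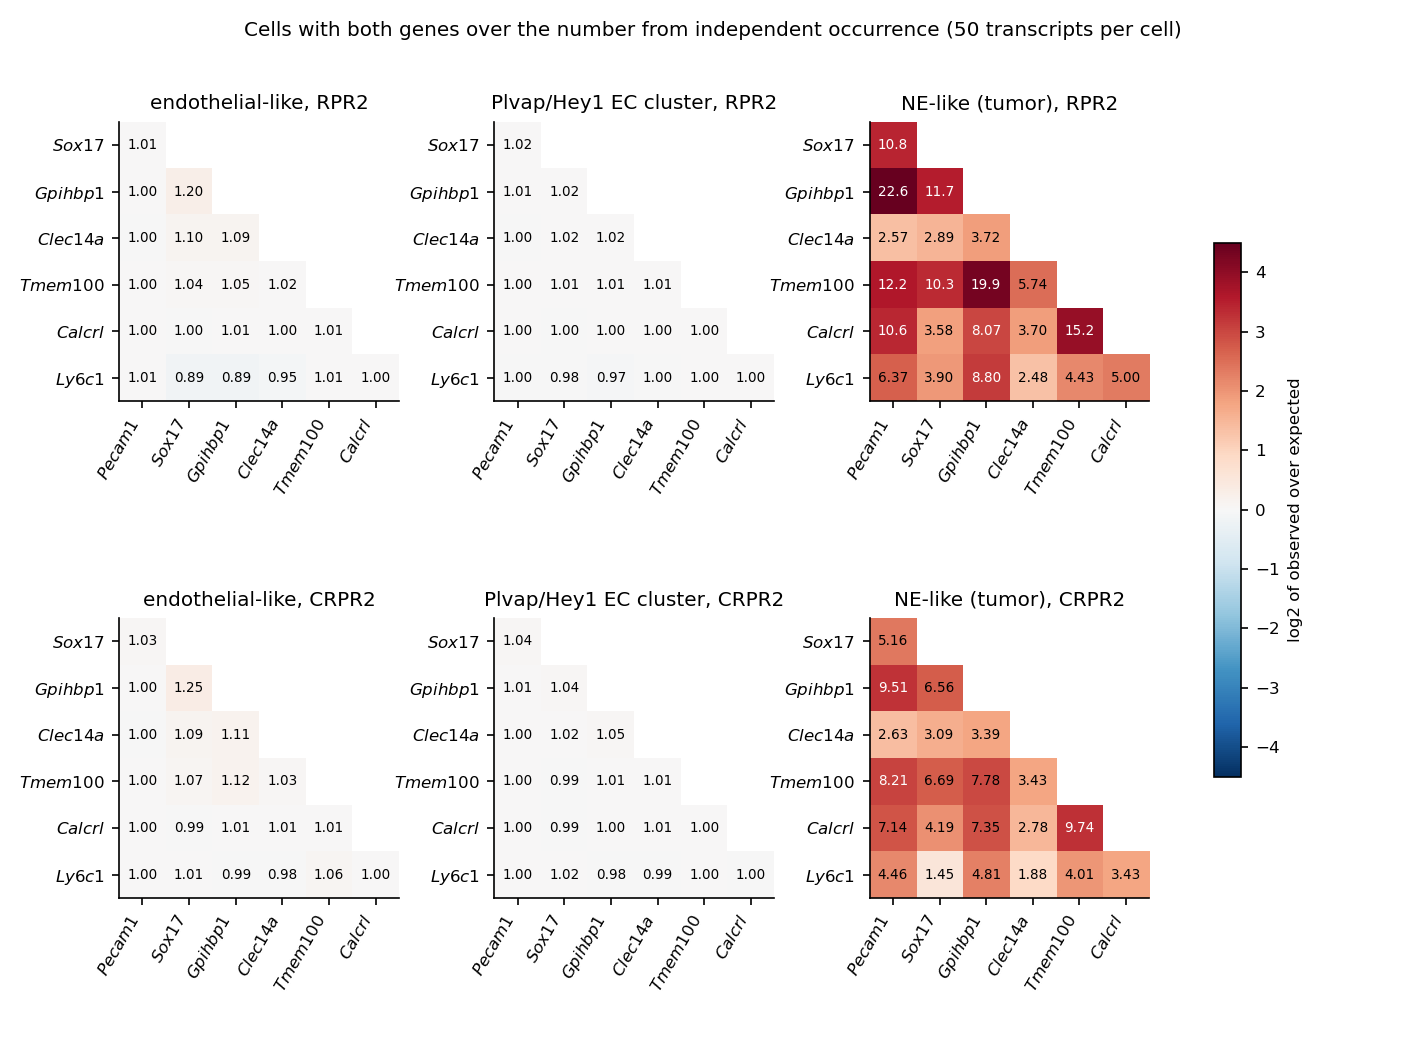
Cells with both genes of a pair over the number that independence gives, for the 21 pairs in endothelial-like cells, the *Plvap* cluster and NE-like cells of each section at 50 transcripts per cell; numbers are ratios and colors their log2. Ratios lie near 1 in endothelial-like cells, with *Sox17* and *Gpihbp1* highest at 1.20 and 1.25, and above 1 for every pair in NE-like cells.

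*Sox17* and *Gpihbp1* were set against each other as markers that might split arterial from capillary endothelium. They were not exclusive. Of RPR2 endothelial-like cells, 6.39% (6.13 to 6.65) held *Sox17* without *Gpihbp1*, 40.3% held *Gpihbp1* without *Sox17*, 9.51% held both and 43.8% neither. In CRPR2 these were 8.10% (7.66 to 8.55), 31.2%, 7.65% and 53.1%. Cells with *Sox17* were richer in *Gpihbp1* than cells without it, 59.8% against 48.0% in RPR2 and 48.6% against 37.0% in CRPR2. The RPR2 ratio of observed to expected cells with both was 1.20 (1.16 to 1.24), and that of CRPR2 was 1.25 (1.18 to 1.33). With the expectation formed inside each cluster it was 1.03 and 1.06, so the excess lay between clusters more than within them.

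By cluster, the ratio was 1.02 (0.988 to 1.06) in the *Plvap* cluster of RPR2 and 1.04 in that of CRPR2. In the *Kdr* cluster, where both genes were low, it was 2.09 from 72 cells with both in RPR2 and 1.56 (0.91 to 2.50) from 17 cells in CRPR2. The *Vwf* cluster gave 0.903 (0.668 to 1.19) from 49 cells in RPR2, an interval that spans 1, and 1.31 (1.03 to 1.64) from 75 cells in CRPR2. The balance of the genes differed between clusters as well. For each *Sox17* transcript the *Plvap* cluster held 4.34 *Gpihbp1* transcripts in RPR2 and 3.24 in CRPR2, the *Kdr* cluster 6.26 and 4.03, and the *Vwf* cluster 2.70 and 2.31. In lymphatic-like cells this number was 17.6 and 15.98. The *Vwf* cluster therefore leaned most toward *Sox17* among the blood vessel clusters, and lymphatic-like cells leaned most toward *Gpihbp1*, in both sections.

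The share of endothelial-like cells with *Sox17* and no *Gpihbp1* was higher in CRPR2 than in RPR2 in the *Plvap* cluster (9.44% against 7.36%). In the *Kdr* cluster it was 3.21% (2.45 to 4.12) in CRPR2, from 59 cells, and 2.10% (1.76 to 2.49) in RPR2, from 131 cells. These intervals overlap. In the *Vwf* cluster it was 7.18% in CRPR2 and 7.38% in RPR2. *Gpihbp1* was lower in CRPR2 in all 3 clusters, and *Sox17* had log2 ratios of 0.07 (0.02 to 0.11) in the *Plvap* cluster, 0.29 (0.04 to 0.54) in the *Kdr* cluster and 0.00 (-0.14 to 0.14) in the *Vwf* cluster. Their parts in the share were not tested. At a mark of 2 transcripts for presence, the log2 ratio of the share was 0.05, against 0.34 at 1 transcript.

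**Figure D4:**
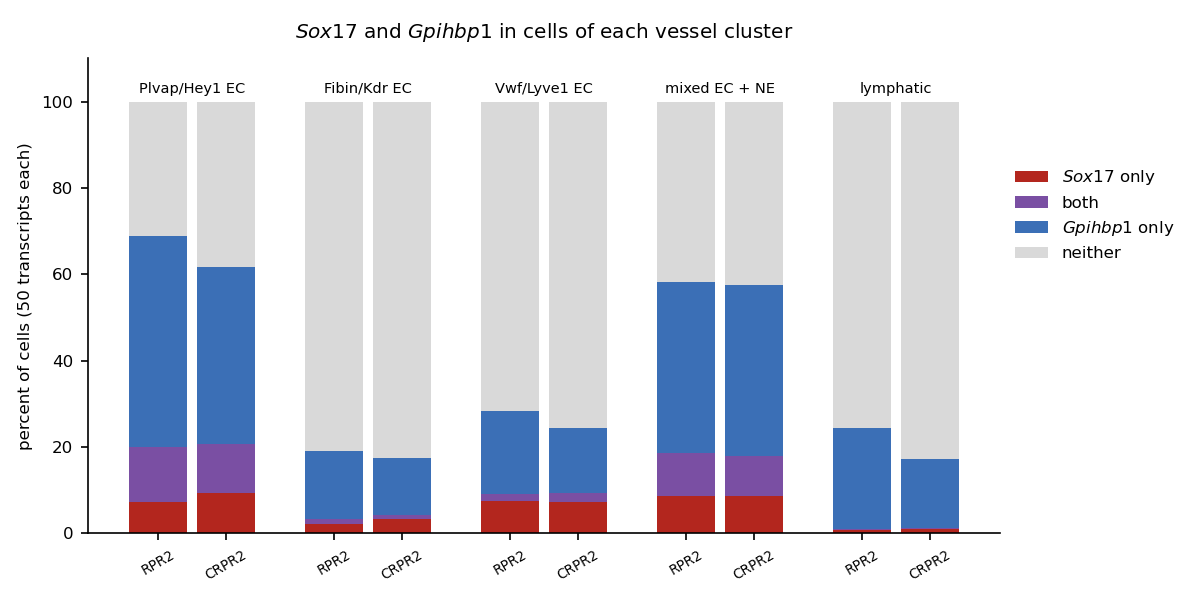
Stacked share of cells, in percent, with *Sox17* only, both genes, *Gpihbp1* only or neither at 50 transcripts per cell, for the 3 endothelial (EC) clusters, the mixed cluster (EC + NE) and lymphatic-like cells of each section. The share with *Sox17* only is 7.36% in RPR2 and 9.44% in CRPR2 in the *Plvap* cluster, and 2.10% and 3.21% in the *Kdr* cluster.

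Vessel genes were then compared between the *Sox17*-only and the *Gpihbp1*-only cells of the endothelial-like class. *Hey2*, a NOTCH target of arterial endothelium, was 756 CPM in *Sox17*-only and 173 CPM in *Gpihbp1*-only cells of RPR2, a log2 ratio of 2.13, and 989 against 151 CPM in CRPR2, a log2 ratio of 2.71. It was the only gene of the vessel lists to pass 2-fold in either section: 1 of 2 arterial genes, 0 of 9 endothelial, 0 of 4 capillary, 0 of 1 venous and 0 of 3 lymphatic genes did, and among 13 vessel signaling genes *Hey2* alone. Over all genes tested, 2.70% were at least 2-fold higher in *Sox17*-only cells of RPR2 and 6.75% in those of CRPR2, while 0% and 0.397% were as much lower. Mural markers moved with this split, from 12045 CPM in *Gpihbp1*-only to 16458 CPM in *Sox17*-only cells (RPR2) and from 15272 to 21835 CPM (CRPR2), with *Cnn1* past 2-fold in RPR2 and *Myh11*, *Rgs5* and *Cnn1*, 3 of 7, in CRPR2. *Hey2* was itself among the 10 leading genes of the mural-like cluster, and the part of mural transcripts in its ratio was not tested. The other arterial gene, *Hey1*, was 6777 against 7904 CPM in RPR2 and 5941 against 5948 CPM in CRPR2. The capillary gene *Cd36*, a fatty acid carrier, was 44859 against 49325 CPM and 34706 against 39655 CPM. Of the remaining members, *Tmem100* had log2 ratios of -0.14 and -0.28, *Calcrl* of -0.10 and -0.17, *Clec14a* of -0.04 and -0.05, *Pecam1* of 0.05 and 0.07, and *Ly6c1* of 0.10 and 0.03. The split by these genes thus set few vessel genes apart at this depth. Of the *Sox17*-only cells, 1806 of 2148 in RPR2 and 863 of 1179 in CRPR2 lay in the *Plvap* cluster. There the genes met about as often as independence gives, and a cell can lack either at 50 transcripts by sampling alone. The small number of differences therefore does not show whether vessel types share these genes.

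In the *Vwf* cluster taken alone the *Hey2* contrast was wider than over the class. There *Hey2* was 5779 against 252 CPM in RPR2, a log2 ratio of 4.52 (3.77 to 5.37), and 3699 against 306 CPM in CRPR2, a log2 ratio of 3.60 (2.89 to 4.38), between 211 and 548 cells and between 257 and 542 cells. In the *Plvap* cluster 0 vessel genes passed 2-fold in either section, under the limit of sampling given above. *Cd36* was 16138 against 33514 CPM in the *Vwf* cluster of RPR2, a log2 ratio of -1.05, and 20261 against 26521 CPM in CRPR2, a log2 ratio of -0.39. Mural markers moved with the split: they summed to 59073 CPM in *Sox17*-only and 30134 CPM in *Gpihbp1*-only cells of this cluster in RPR2 and to 44678 and 23929 CPM in CRPR2, with 3 of 7 and 4 of 7 genes at least 2-fold higher. The smooth muscle genes *Myh11*, *Tagln* and *Cnn1* passed in both sections. Alveolar markers moved the other way: those of type 2 cells summed to 7277 against 13094 CPM in RPR2 and 9918 against 18116 CPM in CRPR2, and those of type 1 cells to 2354 against 4779 CPM and 2160 against 4895 CPM, with both type 1 genes, *Ager* and *Aqp5*, at least 2-fold lower in CRPR2. The part of mural and alveolar transcripts in the *Hey2* and *Cd36* differences was not tested. Outside the listed genes, and chosen after the values were seen, the secreted WNT antagonist gene *Sfrp1* (log2 ratios 3.18 and 2.13) and the elastic fiber gene *Fbln5* (1.30 and 1.35) were also higher in the *Sox17*-only cells of the *Vwf* cluster.

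In tumor cells the 7 genes were found at a low level. They summed to 1417 CPM in NE-like cells of RPR2 and 2178 CPM in those of CRPR2, which is 0.689% and 1.26% of the endothelial-like sum of the same section. *Sox17* was 30.1 CPM (22.2 to 39.9) and 40.0 CPM (37.2 to 43.0), above the highest negative control probe. *Pecam1* was 217 and 353 CPM, *Gpihbp1* 108 and 240 CPM, *Clec14a* 344 and 386 CPM, and *Tmem100* 118 and 176 CPM. *Calcrl* was 313 and 488 CPM, and *Ly6c1* 286 and 496 CPM. At a depth of 50 transcripts, at least 1 member transcript was found in 5.86% of the RPR2 and 8.34% of the CRPR2 tumor cells, and 10.6% and 14.6% without thinning. Every member was below 4% of its endothelial-like level in NE-like cells, from 0.221% and 0.411% for *Tmem100* to 2.33% and 3.81% for *Ly6c1*.

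Over all NE-like cells, each of the 7 genes was higher in CRPR2 than in RPR2 as measured, with log2 ratios from 0.17 (0.04 to 0.29) for *Clec14a* to 1.14 (0.93 to 1.37) for *Gpihbp1*. The interval of *Sox17*, 0.41 (-0.01 to 0.86), reached below 0. *Gpihbp1* was the only member past 2-fold, 1 of the 6 members at 100 CPM or more (*Sox17* lay below that filter), where 6.27% of all genes tested were at least 2-fold higher and 7.67% at least 2-fold lower. The median log2 ratio was 0.62 over the 7 genes and 0.02 over all genes tested. The sum was higher in CRPR2 in each of the 5 NE-like clusters, but not every gene was. *Tmem100* had a log2 ratio of -0.36 (-0.66 to -0.05) in NE-like cluster 13. The ratio was also below 0 for *Clec14a* in cluster 3, at -0.27 (-0.56 to 0.02), and for *Sox17* in cluster 6, at -0.61 (-1.67 to 0.66). When cells were instead classed one by one from their own transcripts, the order of the sections turned, with 2397 CPM for RPR2 and 2138 CPM for CRPR2. That rule took as tumor only cells with at least 2 neuroendocrine transcripts and no transcript of the 9 endothelial markers. *Vwf*, 1 of these markers, stood at 18299 and 22960 CPM in NE-like cells. The rule thus left out tumor cells that held it and was not a like-for-like class. With *Vwf* and *Podxl* left out of that rule, a choice made after seeing the data, the sum was 1238 CPM (RPR2) and 1407 CPM (CRPR2).

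The members did not keep their endothelial proportions in tumor cells. *Tmem100* made up 26.1% of the 7 genes' transcripts in endothelial-like cells of RPR2 and 8.36% in NE-like cells, and 24.7% and 8.08% in CRPR2. *Ly6c1* went the other way, with 5.96% in endothelial-like and 20.2% in NE-like cells of RPR2 and 7.50% and 22.8% in CRPR2. *Clec14a* made up 11.5% and 24.3% in RPR2 and 9.87% and 17.7% in CRPR2, whereas *Pecam1* was close in both classes, at 13.2% and 15.3% in RPR2 and 15.1% and 16.2% in CRPR2. Over all NE-like cells, then, the lectin and the Ly6 gene held larger shares than in endothelial-like cells and the BMP-linked gene a smaller one, in both sections. The NE-like cluster with most member transcripts per cell, described next, was an exception for *Clec14a*, which made up 7.83% and 7.56% there, below its endothelial-like shares.

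The level was uneven among tumor clusters. In 4 of the 5 NE-like clusters the sum ranged from 0.460% to 0.719% of the endothelial-like sum (RPR2) and from 0.817% to 1.19% (CRPR2). The remaining NE-like cluster (777 and 11846 cells), in which *Ecrg4*, *Nox4* and *Rgs5* were among the 10 genes most raised over the cluster mean, reached 3.90% and 5.21%. In it *Gpihbp1* stood at 6.34% and 12.2% of its endothelial-like level, *Pecam1* at 5.77% and 6.73%, and *Tmem100* at 2.29% and 2.23%. Without this cluster, the NE-like sum was 0.524% of the endothelial-like sum in RPR2 and 0.983% in CRPR2.

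Member transcripts in tumor cells came together in the same cells. At least 2 members were held by 0.655% (0.524 to 0.808) of RPR2 and 1.13% (1.08 to 1.18) of CRPR2 tumor cells, where independence gives 0.177% and 0.375%. All 21 pairs had a ratio above 1 in both sections, from 2.48 to 22.6 with a median of 6.37 in RPR2 and from 1.45 to 9.74 with a median of 4.46 in CRPR2. The highest RPR2 ratio, that of *Pecam1* with *Gpihbp1*, rests on 13 cells with both (interval 12.03 to 38.6), and *Sox17* met *Gpihbp1* in 1 cell. These values pool NE-like clusters of unlike member levels. In the NE-like cluster highest in the members, 8.74% (RPR2) and 8.65% (CRPR2) of cells held at least 2. Independence gives 4.96% and 5.43% there, and the median pair ratio was 3.62 and 2.59. NE-like cells with *Pecam1* numbered 290 of 14747 in RPR2 and 5680 of 183453 in CRPR2. In them the other 6 members summed to 8743 CPM against 1011 CPM in cells without *Pecam1*, a log2 ratio of 3.11 (2.94 to 3.28), and in CRPR2 to 9685 against 1514 CPM, a log2 ratio of 2.68. Endothelial markers that are no members, less *Vwf* and *Podxl*, moved the same way, 16152 against 3572 CPM and 18275 against 3652 CPM. Neuroendocrine markers were lower in the *Pecam1* cells, 176495 against 226425 CPM and 180356 against 218293 CPM. *Vwf* and *Podxl* were set aside because NE-like cells held them at large, with *Vwf* at 18299 and 22960 CPM. Whether these transcripts came from neighboring vessel cells was not tested, since cell positions were not used here.

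**Figure D5:**
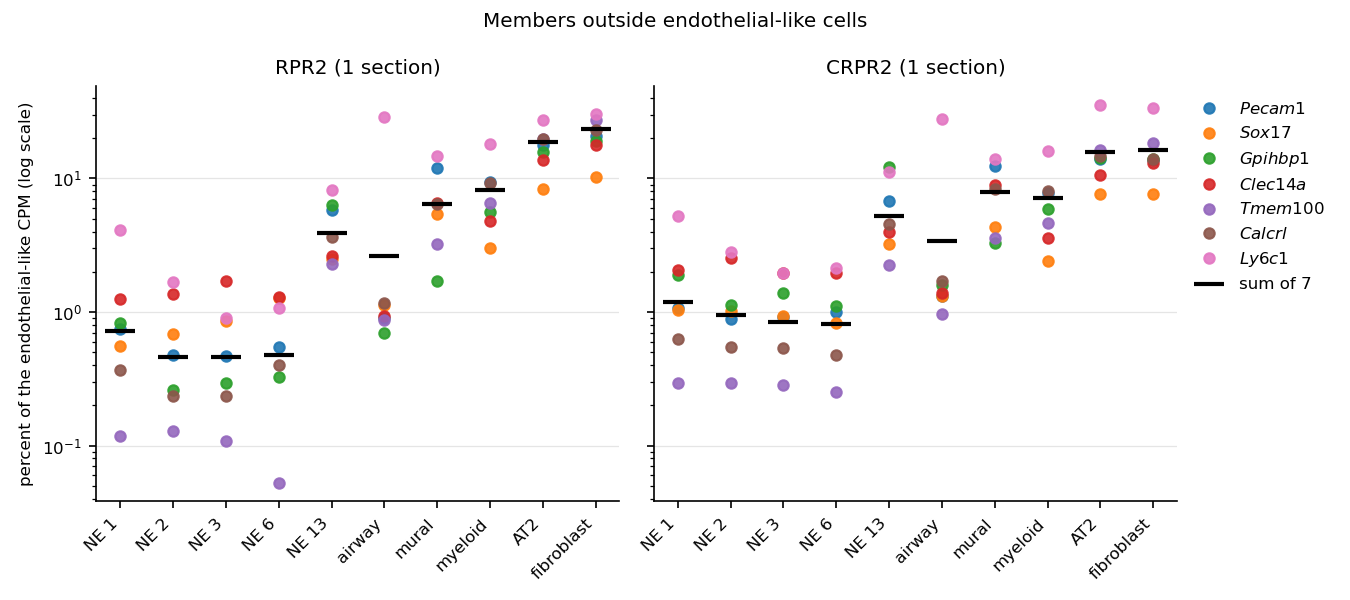
Level of each of the 7 genes (points) and of their sum (bars) in percent of the endothelial-like level of the same section, on a log axis, in the 5 NE-like clusters (numbered as clusters) and in other classes. The sum is lowest in NE-like clusters 1, 2, 3 and 6, at 0.460% to 0.719% (RPR2) and 0.817% to 1.19% (CRPR2), and reaches 3.90% and 5.21% in NE-like cluster 13.

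For comparison, the members' sum reached 2.63% and 3.37% of the endothelial-like sum in airway-like cells, 6.44% and 7.89% in mural-like cells, and 8.22% and 7.09% in myeloid-like cells. It reached 18.8% and 15.9% in alveolar type 2-like cells and 23.3% and 16.3% in fibroblast-like cells. NE-like cells were thus lowest of these classes in both sections. The percentage was higher in CRPR2 than in RPR2 in NE-, airway- and mural-like cells and lower in the other 3 classes. It is taken against endothelial-like sums that themselves differed, at 205717 CPM (RPR2) and 173555 CPM (CRPR2). In CPM the members' sum was 13256 and 13700 in mural-like cells and 5405 and 5853 in airway-like cells. *Ly6c1* alone made up 64.9% and 61.6% of the airway-like sum.

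*Ly6c1* was the member that left the endothelium. Its highest cluster in both sections was an unnamed one led by *Prg2*, *Car3*, *Ms4a1* and *Ctla4*, at 25231 and 25728 CPM, where the other 6 members stood between 1.58% and 7.36% of their endothelial-like levels. In airway-like cells it reached 3509 and 3606 CPM. Across the 31 clusters of both sections (62 points that share libraries), the panel gene whose level followed *Ly6c1* most closely was *Ly6g*, with a Pearson r of 0.95, ahead of *Aqp1* at 0.73 and *Cd36* at 0.72. *Ly6c1* and *Ly6g* are close relatives, and whether their probes tell them apart is not known, so the *Ly6c1* values are uncertain for that reason. *Ly6g* itself was 9790 and 8936 CPM in the unnamed cluster, 1634 and 1977 CPM in endothelial-like cells and 60.1 and 122 CPM in NE-like cells.

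For the other 6 members the closest panel genes were endothelial. *Tie1* and *Eng* were among the 3 closest for 5 and 6 of them, with *Ctla2a* leading for *Pecam1* (r 0.98), *Tie1* for *Sox17* (0.92), *Gpihbp1* (0.97) and *Clec14a* (0.93), and *Eng* for *Tmem100* (0.95) and *Calcrl* (0.96). *Tie1* encodes a receptor kinase partnered with the angiopoietin receptor, and *Eng* a coreceptor of the BMP pathway in vessels. *Plvap*, of the capillary diaphragm, was second for *Sox17* and *Clec14a*, and *Cav1*, of caveolae, was among the 3 closest for *Tmem100*. Among the members themselves, the 15 pairs without *Ly6c1* had r from 0.87 to 0.96, and the 6 pairs with it from 0.58 to 0.72.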

How the data were processed

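Raw transcript counts of each gene in each segmented cell were deposited per section, from Xenium In Situ, with 379 atlas and 100 custom genes. Per the study's methods, cells were segmented by expansion from nuclei, and the submitters' processing notes name Seurat 4.4.0. The deposited counts are not normalized, and a wrongly drawn cell border moves transcripts between neighbors. Sections were grouped by the genotype in their labels.

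The members and the marker lists were chosen with earlier results of these data known. Cells under 20 transcripts were left out. Counts were scaled, log transformed, reduced to 30 principal components without the 7 members, joined by 15 neighbors and clustered (Leiden, igraph 0.11.9) across both sections. A class could name a cluster where at least 3 of its markers were at least 2-fold raised and at least 2 stood among the 10 leading genes. The name was withheld where another class led over the cluster mean or a larger share of neuroendocrine markers was raised. Clusters outside the endothelial and lymphatic classes with endothelial markers raised and in the lead were called mixed, and the rest unnamed. The largest unnamed cluster, with 13 raised neuroendocrine markers, held 2323 RPR2 and 43506 CRPR2 cells and was not counted as tumor. No doublet caller was run. In the cell-by-cell rule, a cell was endothelial-like with at least 2 of the 9 endothelial markers present and fewer than 2 neuroendocrine transcripts. It was tumor with at least 2 neuroendocrine transcripts and no endothelial marker transcript. Levels are CPM, computed as the sum of a gene over a class scaled to 1e6 gene transcripts, and were compared for a gene between classes and sections. Transcript ratios and shares among the members depend on each gene's probes, and are compared only across classes and sections. Medians of log2 ratios used CPM plus 10. Presence, pairs and the *Sox17* and *Gpihbp1* split used cells thinned to 50 transcripts, which left out 15856 RPR2 and 34059 CRPR2 cells. Intervals were at 95% and exact for levels (Poisson), shares (Clopper-Pearson) and ratios between sections or classes (conditional binomial). For pair ratios of observed to expected cells, the Poisson interval of the observed number was divided by the expected number. That number was taken as fixed though it came from the same cells. Pair intervals are therefore approximate, and one that spans 1 does not show independence. With 1 section per group no test was run. Scripts were tested on simulated data and used Python 3.11.15, numpy 2.4.6, scipy 1.17.1 and pandas 2.3.3. The genes named are the 7 members, the 3 panel genes most like each by Pearson correlation over clusters, the vessel genes at 2-fold or more between the *Sox17*-only and *Gpihbp1*-only cells, and up to 3 of the highest neuroendocrine markers, of which 1 is not reported here. Promoter sequences are from RefSeq, build GRCm38.p6, where 3 of 7 members had an entry.

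The alternatives changed the minimum of transcripts, the resolution, the genes clustered on, the class rule, the mixed clusters, the scale, the thinning depth and the number of transcripts that counts as present.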

Additional observations from a re-analysis of the deposited data

How the results depend on the processing

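Of the recomputed values, 26 stayed within the counting interval, 49 left it and 0 reversed their direction. The members' sum in tumor cells, a percentage taken in each section alone, could not be labeled as reversed. Cell by cell this sum was 2397 CPM (RPR2) and 2138 CPM (CRPR2), an order opposite to that of the joint clusters. That rule allowed tumor cells no endothelial marker transcript, so it took a different set of cells. Without *Vwf* and *Podxl* in the cell-by-cell rule it was 1238 CPM (RPR2) and 1407 CPM (CRPR2), the order of the joint clusters. No paired analysis was possible because each genotype has 1 section. Alternatives without the *Vwf* cluster, without *Vwf* and *Podxl* in the cell-by-cell rule, without NE-like cluster 13, the highest in the members, and with unnamed clusters counted as tumor were chosen after seeing the data. The cause of the moves was not tested.

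The log2 ratio of the endothelial-like share (-2.37) was -2.14 at a minimum of 50 transcripts, -2.33 at 2 times the resolution, -2.26 with all genes clustered, -1.80 cell by cell (66.8% and 19.2% of cells), -1.85 cell by cell without *Vwf* and *Podxl*, -1.74 with mixed clusters and -2.65 without the *Vwf* cluster. The log2 ratio of the summed members (-0.25) was, in that order, -0.27, -0.26, -0.22, -0.55, -0.50, -0.40 and -0.18, with -0.22 at a minimum of 10 and -0.20 per cell. At the minimum of 10, the *Vwf* cluster counted as mixed by the naming rule.

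*Sox17* with *Gpihbp1* (1.20 in RPR2, 1.25 in CRPR2) gave 1.16 and 1.14 at a minimum of 10, 2.01 and 2.24 cell by cell, 1.96 and 2.13 without *Vwf* and *Podxl*, and 1.29 and 1.55 at 2 transcripts. In CRPR2 it also moved to 1.13 with all genes clustered, 1.17 with mixed clusters and 1.15 without the *Vwf* cluster. The log2 ratio of the *Sox17*-only share (0.34) was 0.14 cell by cell, 0.19 without *Vwf* and *Podxl*, 0.62 without thinning, 0.22 at 30 and 0.74 at 100 transcripts, and 0.054 at 2 transcripts for presence.

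The members' sum in tumor cells (0.689% and 1.26% of the endothelial-like sum) was 0.602% and 1.15% at a minimum of 50, 0.628% and 1.10% with all genes clustered, 2.29% and 2.98% cell by cell, 1.16% and 1.85% without *Vwf* and *Podxl*, 0.524% and 0.983% without NE-like cluster 13, and 0.848% and 1.51% with unnamed clusters counted as tumor. In CRPR2 alone it also moved to 1.30% at 2 times the resolution, 1.43% with mixed clusters, 1.17% per cell and 1.16% without the *Vwf* cluster. Low counts limit *Sox17* in RPR2 tumor cells, where 48 transcripts were counted.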

Other observations

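A small set of cells, chosen after its values were seen, joined the 7 genes with genes of the cell cycle. At 2 times the resolution, a cluster led by *Cenpf*, *Ube2c*, *Top2a*, *Mki67*, *Tie1* and *Plvap* held 34 cells in RPR2 and 407 in CRPR2, and 94.1% and 98.0% of these lay in the cluster that mixed endothelial with neuroendocrine markers. *Mki67*, a marker of dividing cells, stood at 31615 and 29107 CPM there. *Pecam1* was 26575 and 24618 CPM, close to its endothelial-like level, and *Sox17* was 5040 and 5629 CPM, above it. *Gpihbp1* was 4353 and 6593 CPM, *Clec14a* 11684 and 13396 CPM, and *Tmem100* 23597 and 39119 CPM, all below their endothelial-like levels in the same section. Neuroendocrine markers summed to 2520 and 4945 CPM in these cells, against 15259 and 43905 CPM in the mixed cluster as a whole.

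Cells with at least 1 transcript of *Mki67*, *Top2a* or *Cenpf* made up 1.52% (1.40 to 1.65) of endothelial-like cells in RPR2 and 8.53% (8.10 to 8.98) in CRPR2. In NE-like cells these shares were 61.3% and 70.9%, and neuroendocrine markers in endothelial-like cells were higher in CRPR2 as well (1819 and 3990 CPM). Their part in the share was not tested.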
